A study of Rattus norvegicus with 35 samples.

Results

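The data below follow 10 genes of the calcium cycle of the sarcoplasmic reticulum through cyclic mechanical stretch of neonatal rat ventricular myocytes (NRVMs). The genes, Atp2a2, Pln, Sln, Ryr2, Casq2, Trdn, Jph2, Hrc, Slc8a1 and Dhrs7c, were chosen by name for their known place in this cycle, with earlier results of these data known, out of 14217 genes named on the arrays, and all 10 were measured, by 22 of the 31042 probe sets. The myocytes came from Sprague-Dawley rats of 2 to 4 days and were enriched by preplating, so other heart cells remained. They were kept overnight in medium with serum, then in serum-free medium, and subjected to repeated vacuum-driven stretch, and 5 biological replicates were hybridised for each of 7 groups, 35 Affymetrix arrays in all. Set I held unstretched control cells and cells stretched for 1, 4 and 12 h (20 arrays), and set II held its own unstretched controls and cells stretched for 24 and 48 h (15 arrays). The labels name no transgene or drug in any group, and stretch and its duration are the labelled differences within a set.

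In the heartbeat, calcium entering through the L-type channel opens the ryanodine receptor, and calcium leaves the sarcoplasmic reticulum to activate the myofilaments. Relaxation follows when the pump SERCA2, restrained by phospholamban and sarcolipin, returns calcium to the store and the sodium-calcium exchanger carries the rest out of the cell. Triadin, calsequestrin and the histidine-rich calcium binding protein sit with the release channel on the luminal side, and junctophilin holds the reticulum close to the surface membrane. In failing and hypertrophied hearts, lower SERCA2 is a long-known feature.

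Values are RMA intensities on the log2 scale, and a fold change is the ratio of the geometric means of 5 stretched and 5 control arrays. A gene is represented by its brightest probe set, and other probe sets are described with each gene. A change was called at an adjusted p under 0.05 in limma, with Benjamini-Hochberg adjustment over all 31042 probe sets. Array medians lay between 88.7 and 95.8 on the linear scale, while the upper quartile of set I (341.3 to 372.0) lay under that of set II (394.7 to 416.4), so levels were compared only within a set. Of 15 cardiomyocyte markers, all lay among the brightest probe sets of both controls (Tnnt2, cardiac troponin T, was brighter than 99.9% of probe sets in control cells of set II), but so did collagens of fibroblasts. Since these are bulk samples, fewer cells of a type and less RNA per cell cannot be told apart.

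At every time the called changes of the 10 genes were decreases. After 1 h, 5 genes (Atp2a2, Ryr2, Trdn, Hrc and Dhrs7c) were lower, none was higher and 5 were not called. The background for this count is that 7.52% of all probe sets were called lower at 1 h. After 4 h, 5 genes were lower (15.2% of all probe sets), after 12 h 8 genes (16.9%), after 24 h 6 genes (9.13%) and after 48 h 7 genes (16%). Most of the 10 genes are bright, and among the brighter 15521 probe sets the share called lower was larger, at 11.5%, 23.3%, 24.7%, 13.3% and 23.6% at the 5 times. The median log2 fold change of the 10 genes was -0.13, -0.15, -0.26, -0.17 and -0.37, against 0.00, 0.00, 0.00, 0.02 and 0.03 over all probe sets. Most of these changes were small: 1, 2, 2, 2 and 3 genes were called at 1.5-fold or more, where 0.561%, 1.55%, 2.41%, 1.66% and 4.64% of all probe sets were. The arrays of 6, 5, 6, 5 and 7 genes lay wholly below those of the controls, as did 7.73%, 10.5%, 13.9%, 6.65% and 12.2% of all probe sets. Counted by probe set, 12, 12, 15, 11 and 15 of the 22 were lower and 0, 1, 1, 0 and 0 higher. Dhrs7c, Hrc, Trdn and Atp2a2 were called lower at all 5 times, Ryr2 at 4, Pln at 3, Casq2 at 2, Jph2 and Slc8a1 at 1, and Sln at none.

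**Figure D1:**
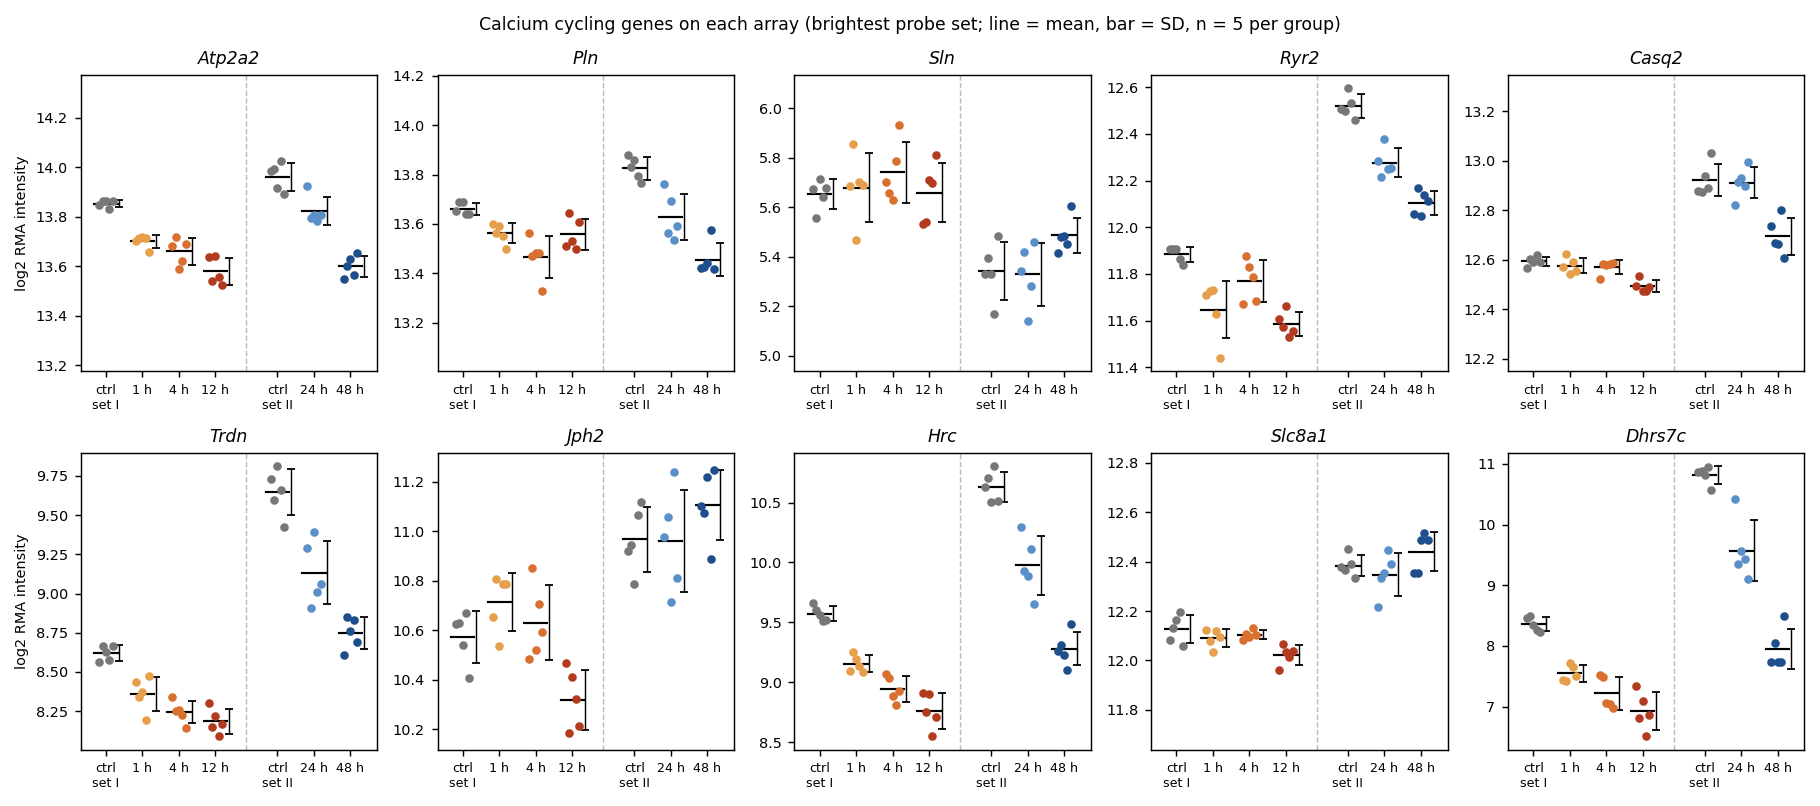
Log2 RMA intensity (vertical axis) of the brightest probe set of each gene on every array, by group (horizontal axis); points are arrays, lines the mean of 5 and bars the SD, and the dashed line separates set I from set II, whose levels are not comparable. Dhrs7c, Hrc and Trdn step down within both sets, while Sln, Jph2 and Slc8a1 overlap their controls at all 5 times.

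**Figure D2:**
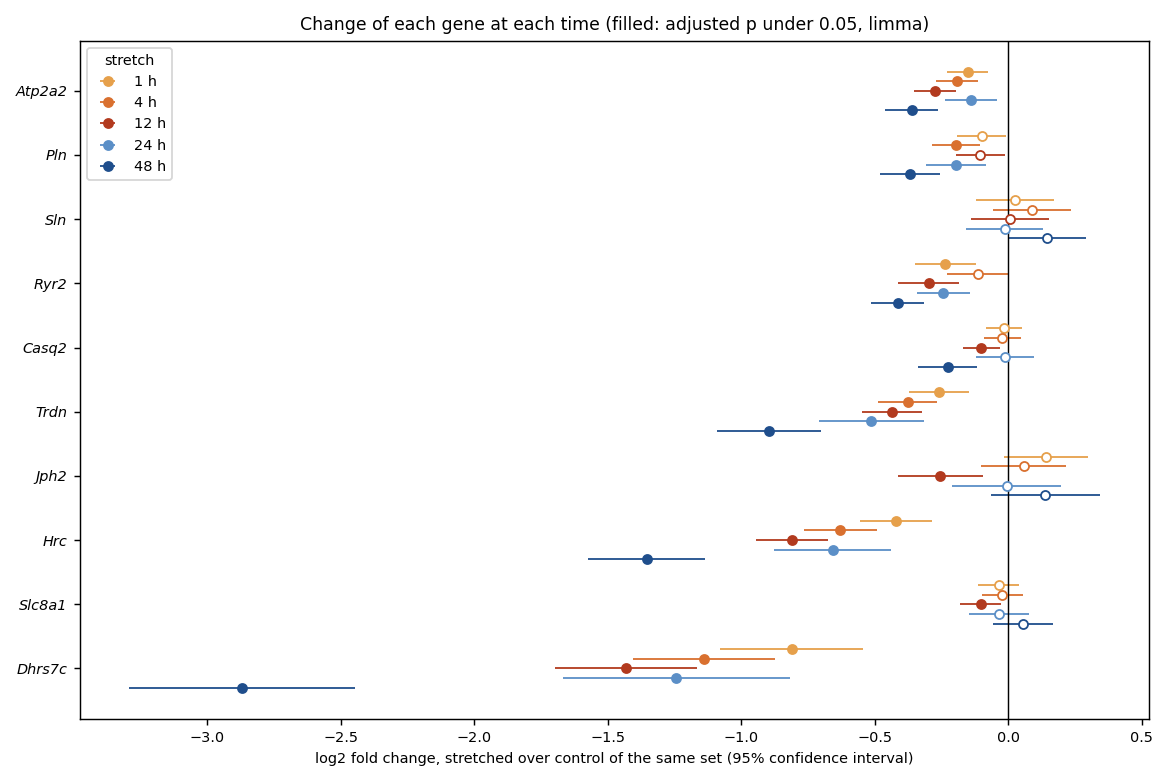
Log2 fold change of stretched over control cells of the same set (horizontal axis) with its 95% confidence interval for each gene at 5 durations of stretch; filled points have an adjusted p under 0.05 in limma. Dhrs7c at 48 h lies lowest, at -2.87, and no filled point lies above 0.

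Atp2a2 encodes SERCA2, the pump that refills the reticulum. Its brightest probe set gave 13.85, 13.86, 13.86, 13.83 and 13.86 on the control arrays of set I, 13.70, 13.72, 13.72, 13.71 and 13.66 after 1 h, 13.68, 13.72, 13.59, 13.62 and 13.69 after 4 h and 13.64, 13.54, 13.64, 13.55 and 13.52 after 12 h. All 15 stretched arrays of set I lay below the lowest control. The log2 fold change was -0.15 ± 0.04 (SE, n = 5 per group) at 1 h, -0.19 ± 0.04 at 4 h and -0.27 ± 0.04 at 12 h, with adjusted p of 0.00755, 0.000409 and 6.99e-06. In set II the controls gave 13.98, 13.99, 13.92, 14.03 and 13.89, the 24 h arrays 13.92, 13.80, 13.81, 13.78 and 13.81 and the 48 h arrays 13.55, 13.60, 13.63, 13.56 and 13.65. All 48 h arrays lay below the controls, whereas 1 of the 24 h arrays, replicate 1, lay within them. The log2 fold change at 24 h was -0.14 ± 0.05 (adjusted p = 0.0467). By 48 h it was -0.36 ± 0.05 (adjusted p = 1.27e-05), which is 0.778 of the control level (95% confidence interval 0.727 to 0.832). The 24 h call rested on little: leaving out any 1 of 13 of the 15 arrays of set II ended it (adjusted p 0.0502 to 0.102), and it held only without control replicate 5 or 24 h replicate 1. With arrays centred on their median, the calls at 1 h (adjusted p = 0.0513) and 24 h (adjusted p = 0.148) were both lost.

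Atp2a2 has 4 other probe sets, and they did not move alike. The brightest, 1369065_a_at, is brighter than 99.9% of all probe sets. Probe set 1398862_at, brighter than 87% of them, fell further, with log2 fold changes of -0.70, -0.56, -0.64, -0.47 and -0.88 at the 5 times, all called, and by 48 h it stood at 0.544 of control. On its control arrays of set II it read 10.55, 10.45, 10.52, 10.10 and 10.56, and after 48 h 9.47, 9.72, 9.54, 9.52 and 9.52. The extra fall of 1398862_at against the brightest probe set on the same arrays was -0.55, -0.36, -0.36, -0.34 and -0.51, with adjusted p of 0.0251, 0.0366, 0.0251, 0.0768 and 0.0366 (exact permutation tests, two-sided, adjusted over 60 tests of 12 probe set pairs). The dim 1391771_at was also called lower at all 5 times, from -0.49 at 24 h to -0.83 at 48 h. In contrast, 1370426_a_at was called only at 48 h (-0.22, adjusted p = 0.00806) and the dim 1375164_at at no time. Whether these probe sets read different transcripts of the gene was not tested. The paper also gives RT-PCR of this gene at the times of set I. Those values lay below control, and none was marked as significant. The same held for the array values printed beside them, which belong to the sequence of 1398862_at.

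Pln encodes phospholamban, the main inhibitor of SERCA2. Its values were 13.65, 13.69, 13.69, 13.64 and 13.64 in controls of set I, 13.60, 13.56, 13.59, 13.55 and 13.50 after 1 h, 13.57, 13.47, 13.48, 13.48 and 13.33 after 4 h and 13.51, 13.64, 13.53, 13.50 and 13.61 after 12 h. The change was called at 4 h (-0.20 ± 0.04, adjusted p = 0.00153), and not at 1 h (-0.10 ± 0.04, adjusted p = 0.149) or 12 h (-0.10 ± 0.04, adjusted p = 0.0742). The 12 h change passed under 7 of the 11 alternatives (adjusted p 0.00303 to 0.0467), and the 1 h change under 3 (0.00247 to 0.0499). Among the 7 were t contrasts from a one-way analysis of variance without moderated variances. The 12 h change also passed without 4 h replicate 5 (adjusted p = 0.0365) or without 12 h replicate 2 (adjusted p = 0.0424). Controls of set II gave 13.88, 13.83, 13.86, 13.80 and 13.76, 24 h arrays 13.76, 13.57, 13.69, 13.54 and 13.59 and 48 h arrays 13.42, 13.43, 13.44, 13.57 and 13.42. Every stretched array of set II was below the lowest control, replicate 1 of the 24 h group only just. At 24 h the log2 fold change was -0.20 ± 0.05 (adjusted p = 0.0162). By 48 h it was -0.37 ± 0.05 (adjusted p = 4.37e-05), or 0.774 of control at 48 h. The other Pln probe sets, 1388876_at and the dim 1384689_at, were also called lower at 1, 4, 12 and 48 h, 1384689_at at 24 h as well, with log2 fold changes of -0.53 and -0.45 at 48 h. From 4 to 12 h both were called higher, by 0.13 (adjusted p = 0.0135) and 0.18 (adjusted p = 0.0235) on the log2 scale, while the brightest gave 0.09 (adjusted p = 0.229).

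Sln encodes sarcolipin, the atrial counterpart of phospholamban. Its single probe set was dim, brighter than 37.4% of all probe sets. Its arrays ranged over 5.56 to 5.72 in controls of set I and 5.47 to 5.86, 5.63 to 5.93 and 5.53 to 5.81 after 1, 4 and 12 h. In set II they ranged over 5.17 to 5.48 in controls, 5.14 to 5.46 after 24 h and 5.41 to 5.60 after 48 h. The groups overlapped at every time, and the log2 fold change ran from -0.01 at 24 h to 0.14 at 48 h, where the 95% interval was 0.00 to 0.29 (adjusted p = 0.122). With arrays centred on their median, the 48 h change became 0.20 with an adjusted p of 0.0313.

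Because Atp2a2 and Pln oppose each other in function, their difference was also followed on each array. A shift of this difference between groups is a shift in relative change, and its size on an array says nothing of their relative abundance. It moved by -0.052 at 1 h and -0.17 at 12 h (adjusted p = 0.0198 for both, exact permutation tests, two-sided, adjusted over 10 tests), so that the brightest probe set of Atp2a2 fell more than that of Pln there. This order turned with the probe set: 1388876_at of Pln gave -0.16 at 1 h and 1370426_a_at of Atp2a2 gave -0.05 at 1 h and 0.01 at 12 h, against -0.15 and -0.27 for the brightest of Atp2a2. At 4, 24 and 48 h the shift was 0.0033, 0.058 and 0.0066, with adjusted p of 0.976, 0.218 and 0.944 (exact permutation tests). With 5 arrays against 5, the smallest p that 252 splits allow is 0.00794. The adjusted p rose to 0.0529 at 1 h without control replicate 5, and to 0.0595 at 12 h without control replicate 1, 2, 3 or 5 (exact permutation tests).

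**Figure D3:**
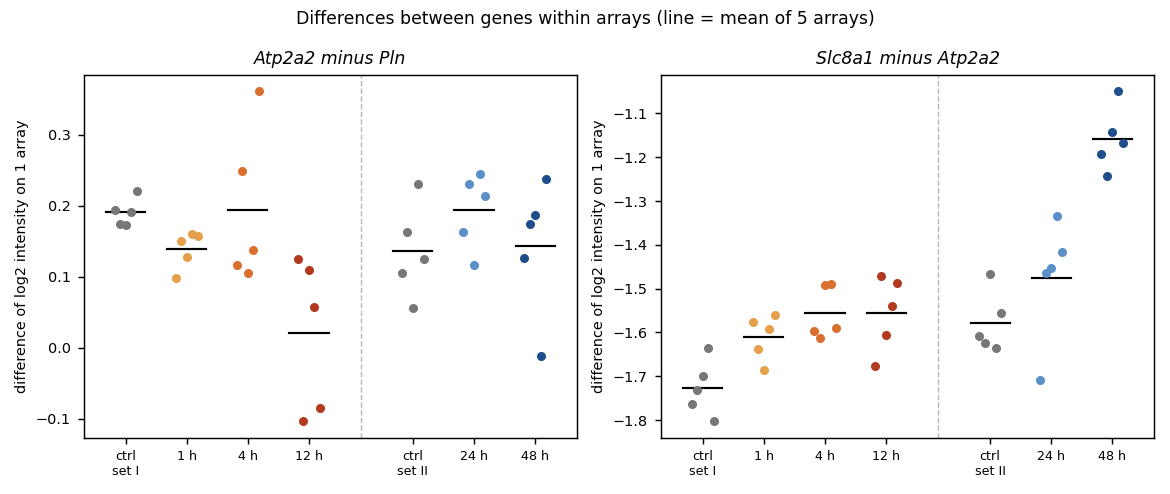
Difference of log2 intensity between a pair of genes on the same array (vertical axis) by group (horizontal axis), for Atp2a2 minus Pln and Slc8a1 minus Atp2a2; points are arrays and lines the mean of 5. The second difference is higher on all 5 arrays at 48 h than on any control of set II.

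Ryr2 encodes the cardiac ryanodine receptor, the release channel itself. Its values in set I were 11.91, 11.91, 11.91, 11.86 and 11.84 in controls, 11.71, 11.73, 11.73, 11.63 and 11.44 after 1 h, 11.67, 11.88, 11.83, 11.79 and 11.68 after 4 h and 11.61, 11.57, 11.66, 11.53 and 11.55 after 12 h. The 1 h and 12 h arrays all lay below the controls, while 1 array of the 4 h group, replicate 2, lay among them. The log2 fold changes were -0.24 ± 0.05, -0.11 ± 0.05 and -0.30 ± 0.05 in this order, and the adjusted p-values 0.00492, 0.131 and 0.0002, so that 4 h was not called. In set II, controls gave 12.51, 12.50, 12.60, 12.53 and 12.46, 24 h arrays 12.28, 12.21, 12.38, 12.25 and 12.25 and 48 h arrays 12.05, 12.17, 12.05, 12.14 and 12.11. These 3 groups did not overlap. The log2 fold changes were -0.24 ± 0.05 (adjusted p = 0.00162) and -0.41 ± 0.05 (adjusted p = 3.82e-06), which left 0.75 of control at 48 h. Its second probe set, 1382775_at, was called lower at 1, 4, 12 and 48 h, with log2 fold changes of -0.53, -0.63, -0.82 and -0.68. At 4 h it fell 0.52 further on the log2 scale than the brightest probe set, and likewise at 12 h (adjusted p = 0.0251 for each, exact permutation tests). The call at 4 h therefore depends on the probe set, and it was also made with quantile-normalised arrays (adjusted p = 0.0307).

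Trdn encodes triadin, which anchors calsequestrin to the release channel. Controls of set I gave 8.56, 8.67, 8.63, 8.58 and 8.66, and the stretched arrays 8.44, 8.34, 8.37, 8.19 and 8.47 after 1 h, 8.34, 8.25, 8.26, 8.23 and 8.14 after 4 h and 8.30, 8.15, 8.22, 8.09 and 8.17 after 12 h. All stretched arrays lay below all controls. The log2 fold changes were -0.26 ± 0.05, -0.38 ± 0.05 and -0.44 ± 0.05, with adjusted p of 0.002, 1.46e-05 and 1.99e-06. Controls of set II gave 9.73, 9.60, 9.81, 9.66 and 9.42, 24 h arrays 9.29, 8.91, 9.39, 9.01 and 9.06 and 48 h arrays 8.61, 8.85, 8.76, 8.83 and 8.69. Again no stretched array reached the lowest control. The log2 fold change at 24 h was -0.51 ± 0.09 (adjusted p = 0.000997). By 48 h it was -0.90 ± 0.09 (adjusted p = 1.48e-06), or 0.537 of control (0.469 to 0.615). Probe sets 1370738_a_at and 1370198_at were called lower at all 5 times too. Of these, 1370198_at fell most at 4 h (-0.89) and less at 48 h (-0.43), where it fell 0.47 less than the brightest probe set (adjusted p = 0.0251, exact permutation test). The fourth, 1371138_at, brighter than 10.7% of all probe sets, was called at no time.

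Jph2 encodes junctophilin 2, which ties the reticulum to the T-tubule. Its arrays ranged over 10.41 to 10.67 in controls of set I, 10.53 to 10.80 after 1 h, 10.48 to 10.85 after 4 h and 10.19 to 10.47 after 12 h. At 12 h it was lower, with a log2 fold change of -0.25 ± 0.08 (adjusted p = 0.0123), though its highest 12 h arrays reached into the control range. At 1 and 4 h the estimates were 0.14 and 0.06, with intervals of -0.02 to 0.30 and -0.10 to 0.22. In set II it ranged over 10.79 to 11.12 in controls, 10.71 to 11.24 after 24 h and 10.89 to 11.25 after 48 h. The estimate at 48 h was 0.14 (interval -0.07 to 0.34, adjusted p = 0.298), and the fit called neither time.

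Among the luminal calcium binding proteins the pattern was uneven. Casq2 encodes cardiac calsequestrin, the main calcium buffer of the store. It was not called at 1, 4 or 24 h, when its log2 fold change lay between -0.02 and -0.01. In controls of set I it read 12.56, 12.60, 12.59, 12.62 and 12.59, and after 12 h 12.49, 12.53, 12.47, 12.47 and 12.49. All 12 h arrays were below all controls, and the log2 fold change was -0.10 ± 0.03 (adjusted p = 0.0204). That call was lost with arrays centred on their median (adjusted p = 0.156) and with the mean of all its probe sets (adjusted p = 0.417). In set II it read 12.88, 12.87, 12.94, 12.89 and 13.03 in controls and 12.73, 12.67, 12.66, 12.80 and 12.61 after 48 h, a change of -0.23 ± 0.05 (adjusted p = 0.00246) or 0.854 of control. Its second probe set, 1387401_at, was called at no time, with -0.43 at 48 h (adjusted p = 0.057).

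Hrc, the histidine-rich calcium binding protein of the lumen, fell at every time. Controls of set I read 9.66, 9.60, 9.56, 9.51 and 9.52, and stretched arrays 9.10, 9.25, 9.20, 9.13 and 9.08 after 1 h, 9.07, 9.04, 8.88, 8.81 and 8.92 after 4 h and 8.91, 8.75, 8.91, 8.55 and 8.71 after 12 h. The stretched and control arrays were separated by a gap at each time. The log2 fold change was -0.42 ± 0.07 at 1 h, -0.63 ± 0.07 at 4 h and -0.81 ± 0.07 at 12 h (adjusted p = 0.000116, 2.77e-07 and 7.05e-09). Controls of set II read 10.63, 10.70, 10.51, 10.80 and 10.52, 24 h arrays 10.30, 9.93, 9.88, 10.11 and 9.65 and 48 h arrays 9.26, 9.31, 9.23, 9.11 and 9.48. At 24 h the log2 fold change was -0.66 ± 0.10 (adjusted p = 0.000343). By 48 h it was -1.35 ± 0.10 (adjusted p = 7.51e-08), when 0.391 of the control level was left (0.336 to 0.455).

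Slc8a1 encodes NCX1, the exchanger of the surface membrane. Its values in controls of set I were 12.08, 12.13, 12.16, 12.19 and 12.06 and after 12 h 11.96, 12.07, 12.03, 12.01 and 12.04. The groups touched, and the difference of -0.10 ± 0.04 had an adjusted p of 0.0341. That call was lost with arrays centred on their median and, at adjusted p of 0.0611 to 0.0992, without control replicate 2, 3 or 4 or 12 h replicate 1 or 4. At 1, 4, 24 and 48 h the log2 fold change lay between -0.04 and 0.06, with no call. The interval at 48 h was -0.06 to 0.17. A dim second probe set, 1370588_a_at, was the only one of the 22 called higher against control, with a log2 fold change of 0.79 ± 0.21 at 4 h (adjusted p = 0.00652). At 12 h it was 0.86 ± 0.21 (adjusted p = 0.00297). On the same arrays it rose 0.81 and 0.96 above the brightest probe set (adjusted p = 0.0251 for each, exact permutation tests). Its arrays ranged over 5.26 to 5.81 in controls, 5.88 to 6.86 after 4 h and 5.73 to 6.99 after 12 h. The direction given for Slc8a1 at 4 and 12 h therefore turned with the choice of probe set.

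By their brightest probe sets, Slc8a1 stood higher relative to Atp2a2 after stretch, but the shift at 24 h was not called. The within-array difference of the brightest probe sets moved by 0.12, 0.17, 0.17, 0.10 and 0.42 at the 5 times, with adjusted p of 0.0397, 0.0198, 0.0317, 0.218 and 0.0198 (exact permutation tests). At 48 h it was -1.24 to -1.05 on the stretched arrays and -1.64 to -1.47 on the controls. The calls at 1 h and 12 h were lost on leaving out any 1 of 8 and any 1 of 5 of their 10 arrays (adjusted p 0.0529 to 0.0661 and 0.0529 to 0.0635, exact permutation tests). These were the control replicates 1, 2, 3 and 5 at both times, with 1 h replicates 1, 2, 4 and 5 or 12 h replicate 2. At 24 h the shift passed without 24 h replicate 1 (adjusted p = 0.0265, exact permutation test). The order depended on the probe set of Atp2a2. Its 1370426_a_at gave -0.05, -0.03 and 0.01 at 1, 4 and 12 h, beside -0.04, -0.02 and -0.10 for the brightest of Slc8a1. At 24 h these gave -0.15 and -0.04, and at 48 h -0.22 and 0.06. In contrast, the estimates for 1398862_at and 1391771_at of Atp2a2 lay below that of its brightest probe set at all 5 times. The within-array difference was not called for 1391771_at at 4 and 12 h (adjusted p = 0.283 and 0.209, exact permutation tests). Nor was it called for 1398862_at at 24 h (adjusted p = 0.0768, exact permutation test). The dim 1375164_at was called at no time.

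Dhrs7c encodes a short-chain dehydrogenase/reductase resident in the sarcoplasmic reticulum of striated muscle, and it moved most. In set I the controls read 8.45, 8.49, 8.34, 8.27 and 8.23, the 1 h arrays 7.43, 7.42, 7.72, 7.65 and 7.51, the 4 h arrays 7.53, 7.48, 7.06, 7.04 and 6.97 and the 12 h arrays 7.34, 6.82, 7.10, 6.51 and 6.86. No stretched array came near the controls. The log2 fold change was -0.81 ± 0.13, -1.14 ± 0.13 and -1.43 ± 0.13 (adjusted p = 0.000146, 7.91e-07 and 3.18e-08), which leaves 0.57, 0.454 and 0.371 of the control level. In set II the controls read 10.87, 10.88, 10.82, 10.94 and 10.57, the 24 h arrays 10.42, 9.35, 9.56, 9.43 and 9.10 and the 48 h arrays 7.73, 8.04, 7.73, 7.74 and 8.49. Replicate 1 of the 24 h group lay closest to the controls, and all 48 h arrays lay below all 24 h arrays. The change was -1.24 ± 0.20 at 24 h (adjusted p = 0.000412) and -2.87 ± 0.20 by 48 h (adjusted p = 3.3e-08), when 0.137 of the control level was left (0.102 to 0.184).

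**Figure D4:**
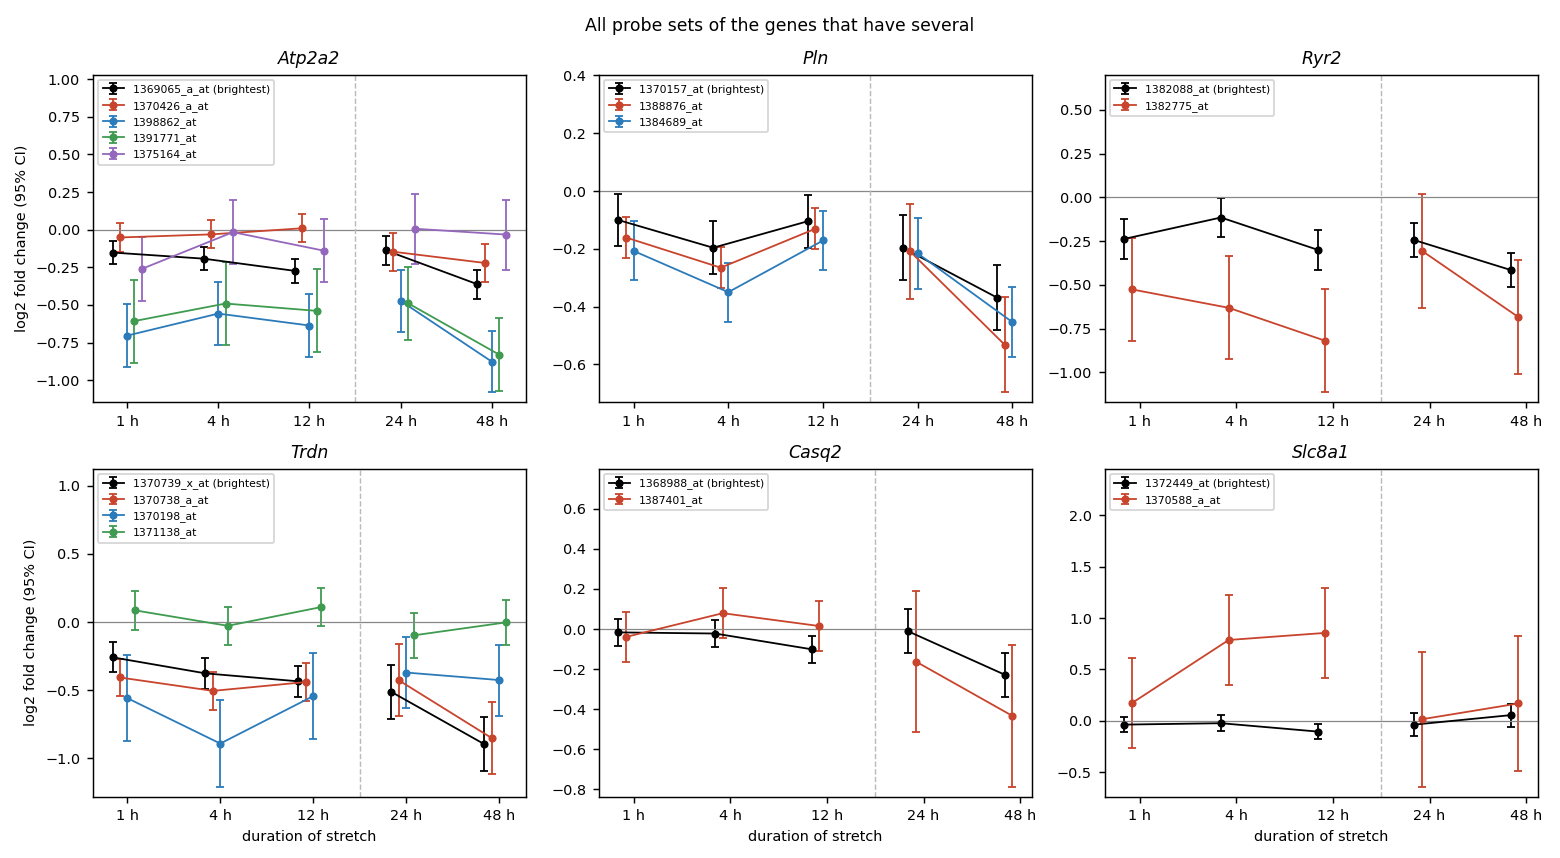
Log2 fold change with its 95% confidence interval (vertical axis) at each duration of stretch (horizontal axis) for every probe set of the 6 genes that have several; black is the brightest, and the dashed line separates set I from set II. In Atp2a2, 1398862_at lies below the brightest probe set at every time, and in Slc8a1 the second probe set rises at 4 and 12 h.

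The times of a set were also compared with each other directly, by the brightest probe set of each gene. From 24 to 48 h, 6 of the 10 genes fell further (4.03% of all probe sets were called lower in this comparison): Dhrs7c, Hrc, Trdn, Atp2a2, Casq2 and Ryr2. Their log2 differences were -1.63, -0.70, -0.38, -0.22, -0.22 and -0.17 in this order, with adjusted p of 0.000199, 0.000755, 0.0194, 0.00737, 0.018 and 0.0385. Single arrays decided several of these calls. The one of Casq2 was lost without 48 h replicate 5 (adjusted p = 0.0528), and that of Trdn without 24 h replicate 1 or 3 or 48 h replicate 1 or 5 (0.0508 to 0.0577). That of Ryr2 was lost without any 1 of 9 arrays, namely control replicates 1 and 2, 24 h replicates 1, 3, 4 and 5, and 48 h replicates 1, 3 and 5 (0.051 to 0.1). Pln was called without 24 h replicate 4 or 48 h replicate 4 (0.032 and 0.0473). Under 3 of the 11 alternatives the Ryr2 call was lost (0.0806 to 0.0851), and under 5 Pln was called. With the mean of all probe sets, Casq2 and Trdn were not called (0.129 and 0.156). The second probe sets of Casq2 and Ryr2 (0.427 and 0.183), 1370198_at of Trdn (0.879) and 1370426_a_at of Atp2a2 (0.568) were not called. Called lower were 1398862_at of Atp2a2 (-0.40, adjusted p = 0.0183) and both other Pln probe sets (-0.32 and -0.24, 0.0191 and 0.0201).

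Within set I the steps were smaller. From 1 to 4 h only Hrc fell further (-0.21, adjusted p = 0.038; 6.17% of all probe sets were called lower), a call lost without 1 h replicate 2, 3 or 4 or 4 h replicate 3, 4 or 5 (0.0616 to 0.107). It was also lost under 1 of the 11 alternatives (0.064). Without 1 h replicate 4 Trdn was called (0.049), and without 4 h replicate 1 Dhrs7c (0.0396). Probe set 1388876_at of Pln was called lower in this step (-0.10, adjusted p = 0.0449). From 4 to 12 h Jph2 (-0.31, adjusted p = 0.011) and Ryr2 (-0.18, adjusted p = 0.0372) fell (5.13% of all probe sets). The Ryr2 call was lost without 4 h replicate 2, 3 or 4 or 12 h replicate 1, 2, 4 or 5 (0.0529 to 0.0877). It was also lost under 3 of the alternatives (0.0506 to 0.178). Hrc and Dhrs7c were called without 12 h replicate 1 (0.0486 and 0.0477). In this step 2 probe sets of Pln were called higher, as given above.

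Sequence upstream of the genes is shown for 4 members that fell, to set a pair of GC-rich promoters beside a pair without the motifs searched. The RefSeq table (build GRCr8) gives promoters of 8 of the 10 genes, and the 250 bases before the start site were searched on both strands for the E-box CANNTG, the GC box GGGCGG, the GATA core GATAAG, the MEF2 site and the CArG box. Capitals mark matches and nothing else. The sequences of Atp2a2 (chr12:39733269-39733518, plus strand), Ryr2 (chr17:63081277-63081526, plus strand), Hrc (chr1:104949500-104949749, plus strand) and Trdn (chr1:26229600-26229849, minus strand) read 5′ to 3′ as follows.
Atp2a2: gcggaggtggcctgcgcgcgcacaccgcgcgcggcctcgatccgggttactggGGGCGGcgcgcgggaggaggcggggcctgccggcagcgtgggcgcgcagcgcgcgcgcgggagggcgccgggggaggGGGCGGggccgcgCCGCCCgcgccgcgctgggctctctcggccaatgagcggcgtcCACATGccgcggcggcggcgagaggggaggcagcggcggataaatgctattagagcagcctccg
Ryr2: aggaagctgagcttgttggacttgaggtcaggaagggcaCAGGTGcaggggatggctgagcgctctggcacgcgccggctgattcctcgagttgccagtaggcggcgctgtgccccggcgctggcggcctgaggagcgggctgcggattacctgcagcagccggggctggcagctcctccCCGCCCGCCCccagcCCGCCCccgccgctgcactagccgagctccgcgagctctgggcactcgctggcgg
Hrc: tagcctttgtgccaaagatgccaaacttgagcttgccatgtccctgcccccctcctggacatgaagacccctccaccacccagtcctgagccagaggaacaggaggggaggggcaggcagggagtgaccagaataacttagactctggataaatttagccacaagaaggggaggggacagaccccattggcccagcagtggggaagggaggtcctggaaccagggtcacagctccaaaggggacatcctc
Trdn: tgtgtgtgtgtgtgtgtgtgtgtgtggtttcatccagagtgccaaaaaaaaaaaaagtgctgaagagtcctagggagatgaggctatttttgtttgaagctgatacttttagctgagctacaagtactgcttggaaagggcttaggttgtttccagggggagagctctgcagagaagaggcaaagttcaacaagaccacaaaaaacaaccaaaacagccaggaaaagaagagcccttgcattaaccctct
The Atp2a2 promoter, with 80% G and C, holds 3 GC boxes and 1 E-box, and that of Ryr2 holds 3 GC boxes and 1 E-box, of which some GC boxes overlap each other. No match of the 5 motifs was found in the Hrc or Trdn window. Over the 8 promoters, the E-box was found in 5, the GC box in 2, and the GATA core (Pln) and the MEF2 site (Casq2) in 1 each, while 65.5%, 30.5%, 6.18% and 2.96% of the 33469 promoters of the table hold them. The CArG box, in 1.5% of promoters, was found in none.

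Over the 35 arrays, with the mean of each set removed, the genes most like Dhrs7c were Hrc (Pearson r = 0.982), Adss1 (0.981) and Plin5 (0.975), out of 8759 genes with a mean log2 intensity of at least 7. Hrc was most like Adss1 (0.985), an enzyme of AMP synthesis in muscle, then Dhrs7c and Plin5, a lipid droplet protein of oxidative tissue. Atp2a2 was most like Hrc (0.962), Sh3kbp1 (0.960) and Dhrs7c (0.957). Trdn was most like Cryzl2, Ctnnal1 and Hadh, and Pln most like Arhgap26, Tox and Cpt2. Sln had no close match, with a highest r of 0.583. The arrays share their groups, so these values describe a common course over time and carry no test.

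The other genes of calcium handling were followed through 4 lists of 64 genes, of which 57 were measured. Across them, decreases and increases were mixed: 6, 16, 15, 8 and 15 genes were lower at the 5 times, while 2, 10, 12, 8 and 12 were higher. The share of all probe sets called higher was 6.32%, 14.2%, 16.3%, 9.14% and 16.9% at these times. The median log2 fold change of the 57 genes was 0.00, 0.01, -0.06, -0.01 and -0.02.

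Partners of the release unit and the lumen (15 genes measured) were 4 lower and 5 higher at 48 h. Casq1, the skeletal muscle calsequestrin, rose at every time and most at 24 h (1.35, adjusted p = 0.0079), with 0.88 at 48 h, when Casq2 fell. Ryr3, a minor ryanodine receptor, was higher at 48 h (0.88) and lower at 12 h (-0.57, adjusted p = 9.78e-05). S100a1, a calcium sensor that binds SERCA2 and the release channel, was lower at 48 h (-0.78, adjusted p = 8.79e-08), and Jsrp1, a junctional protein, was higher (0.58).

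Kinases, phosphatases and their anchors (18 genes measured) gave 3, 7, 4, 5 and 8 lower and 0, 1, 2, 1 and 1 higher at the 5 times, beside 7.52%, 15.2%, 16.9%, 9.13% and 16% of all probe sets called lower. At 48 h Camk2a (-0.85), the glycogen-targeting phosphatase subunit Ppp1r3a (-0.76), the kinase anchor Akap7 (-0.54), which binds phospholamban, and the phosphatase inhibitor Ppp1r1a (-0.53) were lower. Ppp1r2, another phosphatase inhibitor, went the other way at 48 h (0.41, adjusted p = 4.35e-05), as did the protein kinase A subunit Prkar2a at 12 h (0.26).

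Other pumps and exchangers (11 genes measured) had few calls, with 1 lower and 3 higher at 48 h. The plasma membrane calcium pump Atp2b1 was higher at 4 h (0.38) and 48 h (0.42, adjusted p = 0.014), and the mitochondrial exchanger Slc8b1 was lower at 4 h (-0.28). Of the other SERCA genes, Atp2a1 was called lower at 4 h (-0.20) and Atp2a3 higher at 48 h (0.22). For entry, IP3 receptors, store sensors and mitochondrial uptake (13 genes measured), 2 were lower and 3 higher at 48 h. Cacna1c, the pore of the L-type channel, was lower at all 5 times, from -0.27 at 1 h to -0.75 at 48 h (adjusted p = 6.6e-07), and its subunit Cacnb2 was lower from 4 h on (-0.39 at 48 h). Mcu, the mitochondrial calcium uniporter, was higher at 48 h (0.70, adjusted p = 0.0111), as was the IP3 receptor Itpr3 (0.41).

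**Figure D5:**
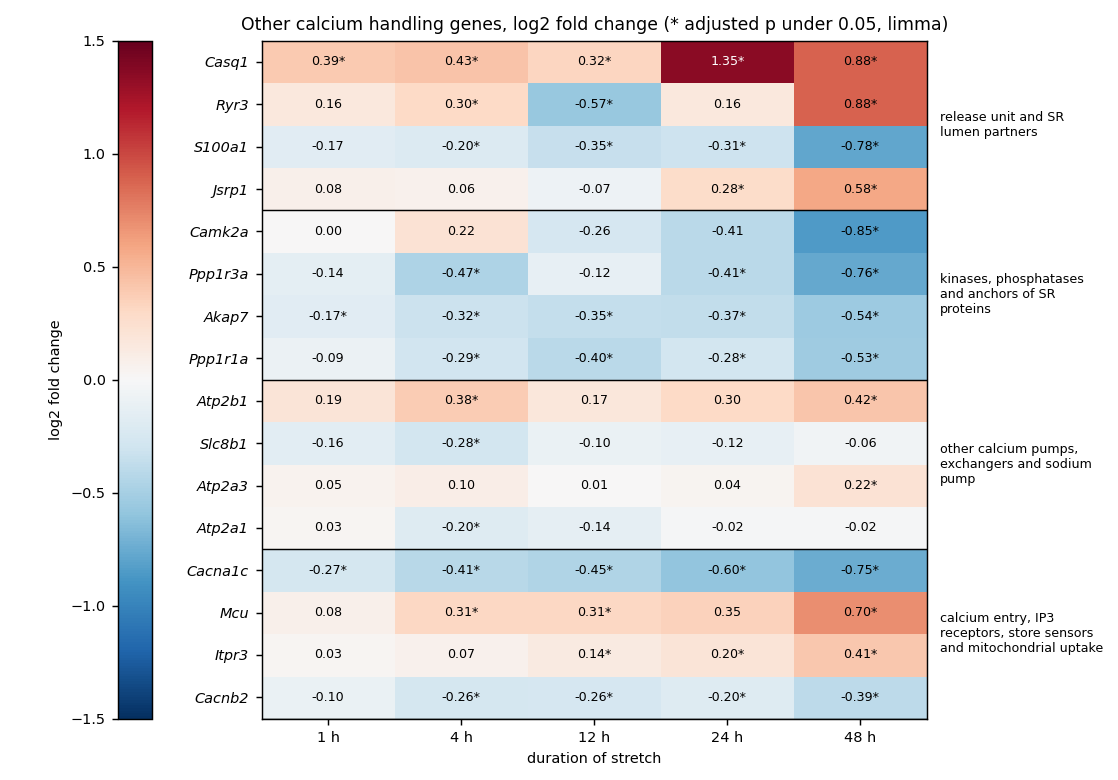
Log2 fold change (colour and number) of 16 other calcium handling genes, the 4 with the largest called change in each list, at each duration of stretch (horizontal axis); an asterisk marks an adjusted p under 0.05 in limma. Cacna1c is lower and Casq1 higher at all 5 times.

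Markers of the cell types in the culture moved beside these genes. Of 15 cardiomyocyte markers, 3, 4, 8, 4 and 7 were lower and 0, 0, 0, 2 and 3 higher at the 5 times. Of all probe sets, 7.52%, 15.2%, 16.9%, 9.13% and 16% were called lower. The shares called higher were 6.32%, 14.2%, 16.3%, 9.14% and 16.9%. Among the brighter 15521 probe sets, 11.5%, 23.3%, 24.7%, 13.3% and 23.6% were lower. Their summed linear intensity was 151678 to 157723 in controls of set I and 141173 to 145347 after 12 h, and 145910 to 153161 in controls of set II and 133413 to 138793 after 48 h. The median log2 fold change of these markers was -0.04, -0.01, -0.22, -0.04 and -0.07 at the 5 times, beside -0.13, -0.15, -0.26, -0.17 and -0.37 for the 10 genes. The markers differed widely among themselves at 48 h, with Tnnt2 at -0.07 (adjusted p = 0.286), Myh6 at -0.24, Myh7 at 0.46, and Mb (myoglobin) and Ckm (muscle creatine kinase) lowest at -1.57 and -1.14. Tnni3 (-0.45) and Ldb3 (-0.56) were called lower as well, and Myoz2 (0.41) higher.

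Of all probe sets, 16% were called lower and 16.9% higher at 48 h. Of 10 fibroblast markers, 6 were lower and 1 higher at 48 h, with sums of 76948 to 80110 in controls and 65289 to 73252 after 48 h. Of 9 endothelial markers, 7 were lower and 1 higher, with sums of 3858 to 4997 and 3153 to 3376. Of 10 smooth muscle and pericyte markers, 1 was lower and 5 higher, with sums of 8284 to 10410.4 and 14292 to 15413. Des (desmin) was the brightest of these in both controls (log2 intensity 12.56 in set I and 12.36 in set II). The sums therefore lean on this gene and are no measure of smooth muscle or pericyte content. Of 10 macrophage markers, 6 were lower and none higher, with sums of 3237 to 4233 and 2077 to 2468. At 12 h, 6 fibroblast markers were lower (sums 72263 to 77502 in controls of set I and 67335 to 71083 after 12 h), 5 endothelial markers were lower and 1 higher (3042 to 3564 and 2683 to 3122), 1 smooth muscle marker was lower and 2 higher (11585 to 12728 and 13417 to 14336), and 2 macrophage markers were lower (881 to 988 and 786 to 874). No marker is at 0 on this scale, and Cd163 was dimmest, brighter than 11% of probe sets in controls of set II. The part of cell composition in the changes of the 10 genes was not tested.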

How the data were processed

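RNA of NRVMs was extracted with TRIzol and hybridised to Affymetrix rat arrays. The authors made the intensity values with Robust Multichip Average (RMA) and deposited linear values for each array, which were taken to log2 here. The suffixes of the control labels were read as set I and set II, and the sets were compared only within themselves. Among 1088465 values, 471 in 427 probe sets had become dates and were read back as intensities (6.9197 to 22.4), none of them in a probe set of the 10 genes. After 57 array controls were left out, 31042 probe sets were fitted in limma 3.58.1 (R 4.3.3), with 1 mean per group and moderated variances, separately for each set, with Benjamini-Hochberg adjustment of the p-values in each comparison. The median residual SD was 0.114 (log2, 16 residual degrees of freedom) in set I and 0.12 (12 degrees) in set II, and 5 arrays per group limit the precision. The procedure was tested on simulated data. Permutation tests and tables used Python 3.11.15 with numpy 2.4.6 and pandas 2.3.3.

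The array annotation gives 1 gene for 20826 probe sets, several for 436 and none for 9780, and all 10 symbols matched RefSeq. The genes named are the 10 members, of each wider list up to 4 genes with the largest called change and called genes that go against them, and the 3 genes most like a member. The members and lists were chosen with earlier results of these data known. The wider lists rest on textbook knowledge of calcium handling. Results were recomputed under 11 alternatives and without each of the 35 arrays. Among the alternatives were t contrasts from a one-way analysis of variance without moderated variances, other scalings and other ways to join probe sets.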

Additional observations from a re-analysis of the deposited data

Results flagged for a closer look

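Of 70 groups of 5 arrays (10 genes in 7 groups), 3 held an array far from the others by Dixon's test, where chance gives about 1 in 20. Atp2a2 was highest on 24 h replicate 1 (13.92), Casq2 was lowest on 4 h replicate 1 (12.52), and Pln was highest on 48 h replicate 4 (13.57), all as log2 intensity.

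Of 30 comparisons between neighbouring times by the brightest probe sets, 9 were called in limma, each a decrease. Counted over the 22 probe sets, 2, 2 and 9 were called lower from 1 to 4, 4 to 12 and 24 to 48 h. From 4 to 12 h 2 were called higher, both of Pln. Of all probe sets, 6.17%, 5.13% and 4.03% were called lower from 1 to 4, 4 to 12 and 24 to 48 h. Several of the 9 calls were lost on leaving out single arrays or under alternatives, as given above. From 24 to 48 h the log2 difference was -1.63 for Dhrs7c, -0.70 for Hrc, -0.38 for Trdn, -0.22 for Atp2a2, -0.22 for Casq2 and -0.17 for Ryr2. From 1 to 4 h it was -0.21 for Hrc, and from 4 to 12 h -0.31 for Jph2 and -0.18 for Ryr2.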

How the results depend on the processing

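Against control, the fold changes of the 10 genes gave 545 values under the 11 alternatives. Of these 522 kept their direction and their side of the threshold, 8 lost a call, 13 gained one and 2 reversed. Leaving out 1 array gave 900 values, of which 880 kept both, 18 lost a call and 2 gained one. The reversed values are those of Slc8a1 with the mean of all probe sets of a gene, 0.38 at both 4 and 12 h (adjusted p = 0.00724 and 0.0075), where its second probe set enters the mean. With that mean, 1 of the 10 genes was higher at 4 h and 1 at 12 h, 5 genes of the wider lists were higher at 1 h, 3 members were lower and 1 higher from 1 to 4 h, and 1 lower and 1 higher from 4 to 12 h. With arrays centred on the median, 1 member was higher at 48 h, 2 wider genes were lower and 5 higher at 1 h, and 1 member was lower from 4 to 12 h. With each stretched group and its control fitted alone, 1 wider gene was higher at 1 h, and 0 members were lower from 1 to 4 h and 1 from 4 to 12 h. With quantile normalization 4 wider genes were higher at 1 h. Without dim probe sets 11 wider genes were lower and 4 higher at 1 h, and 4 members were lower from 4 to 12 h. With array weights the wider counts at 1 h were 11 lower and 6 higher, with trended and robust moderation 10 were lower and 4 members were lower from 4 to 12 h, and with 1 probe set per gene 10 wider genes were lower at 1 h. The cause of these shifts was not tested.

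With 1 array left out, between 3 and 8 wider genes were lower at 1 h, between 1 and 4 higher at 1 h and between 3 and 10 higher at 24 h. The members called lower numbered between 0 and 2 in the step from 1 to 4 h, 1 and 3 from 4 to 12 h, and 3 and 7 from 24 to 48 h. The within-array shift of Atp2a2 minus Pln ran from -0.057 to -0.042 (1 h) or from -0.20 to -0.14 (12 h). That of Slc8a1 minus Atp2a2 lay within 0.10 and 0.14 after 1 h, 0.15 and 0.20 after 12 h, 0.067 and 0.16 after 24 h.

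The paper describes stretch as begun in steps within each culture and ended together, so by this account the groups of a set shared cultures. The labels do not say whether arrays of the same replicate number share a culture. The main fit and the permutation tests took no account of culture. Over all probe sets, deviations of same-numbered arrays correlated at -0.30 to 0.34 (set I) or -0.39 to 0.54 (set II). The medians were -0.0028 and -0.041, against -0.0024 and -0.0027 for arrays of other numbers. Of the arrays, 5 of 20 and 5 of 15 were closest to one of their own number. These values show no plain pairing by replicate number but cannot exclude it for single probe sets. With the replicate block, the within-array shift at 1 h was -0.052 for Atp2a2 minus Pln (adjusted p = 0.386) and 0.12 for Slc8a1 minus Atp2a2 (adjusted p = 0.056), both from limma in place of the permutation test, and the call of Atp2a2 at 24 h was lost (adjusted p = 0.0952).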
